A study of Homo sapiens with 6 samples.

Results

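The clustered, replication-dependent histone genes were described in 2 human prostate cancer cell lines in which PLXND1, the gene of the semaphorin receptor Plexin D1, had been targeted with siRNA. The members were all protein-coding genes of GENCODE release 29 whose symbol starts with HIST1H, HIST2H or HIST3H, which gave 70 of the 58735 genes in the deposited table. Of the 70, 55 lie on chromosome 6 (the HIST1 cluster) and 15 on chromosome 1 (12 HIST2 and 3 HIST3 genes). By class, 6 encode the linker histone H1, 17 H2A, 18 H2B, 15 H3 and 14 H4. They were picked by name and not by any measured value, although earlier results of these data were known when the members were chosen.

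The 6 libraries fall into 4 groups. H660 cells, a line of neuroendocrine prostate cancer, received PLXND1 siRNA 1 or siRNA 2 (1 library each) or a control siRNA (1 library). C4-2B MDVR cells are C4-2B cells selected for growth under the prostate cancer drug enzalutamide, and received the same 3 treatments, with 1 library each. Neither a control nor a single siRNA was repeated in the same cells. Separate cultures are not mentioned in the labels, so p-values measure the spread between these libraries. Each line is 1 established line, and all are cultures of bulk cells, in which fewer cells of a type and less RNA per cell cannot be told apart.

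Chromatin is packed into nucleosomes, in which DNA winds around a core of H2A, H2B, H3 and H4, and H1 binds the DNA between cores. The clustered genes supply these proteins mainly during S phase, when DNA is copied. Their messages are unusual: most have no introns and no long poly(A) tail, and end a few bases after a short stem-loop that is bound by the stem-loop binding protein SLBP. A subset of these genes also makes longer, polyadenylated transcripts, which are known from cells that have stopped dividing or are differentiating. The libraries are labelled as mRNA-seq from total RNA, and how mRNA was enriched is not stated in the labels. A library that selects poly(A) tails would see mainly the polyadenylated transcripts, so the values below describe the histone RNA that these libraries captured.

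The 3′ end signals of the members are shown first because they define the usual form of a histone message. A stem-loop of 16 bases was found after the stop codon in 30 of the 35 members whose GENCODE 29 transcripts hold any 3′ UTR, at 22 to 67 bases after the stop. The pattern searched on the sense strand was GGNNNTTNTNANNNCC, with bases 3 to 5 able to pair with bases 12 to 14. The other 35 members are annotated with no 3′ UTR, so no search was possible there. The sequences below are on GRCh38, 5′ to 3′ on the strand of the gene, and capitals mark the arms of the stem.
HIST2H2BE, chr1:149886188-149886203, minus strand: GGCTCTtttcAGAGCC
HIST1H2AC, chr6:26124669-26124684, plus strand: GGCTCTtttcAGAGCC
HIST1H2BD, chr6:26158587-26158602, plus strand: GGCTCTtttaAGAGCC
HIST1H3E, chr6:26225596-26225611, plus strand: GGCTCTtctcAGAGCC
HIST1H3H, chr6:27810516-27810531, plus strand: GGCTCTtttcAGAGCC
HIST1H4H, chr6:26285131-26285146, minus strand: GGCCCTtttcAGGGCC
HIST1H4I, chr6:27139654-27139669, plus strand: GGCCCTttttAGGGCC
The form shown for HIST2H2BE occurred in 17 of the 30 members. The GGCCCT stem was found in 7 of 7 H4 members with a stem-loop and in none of the 6 H2A, 11 H2B and 6 H3 members with one. HIST1H3E held a loop that no other member held.

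In 21 of the 30, an annotated transcript runs on for at least 100 bases past the stem-loop, which a message cut at that signal would not do. It runs on for 1729 bases in HIST2H2BE, 1128 in HIST1H2AC, 1862 in HIST1H3E, 769 in HIST1H3H and 1655 in HIST1H4H. The poly(A) signal AATAAA occurs in the last 60 bases of an annotated transcript in 14 of these 21. In what follows, a member is called long or spliced when its annotated exons sum to over 1000 bases or any transcript has over 1 exon. That holds for 24 members, and the other 46 are short and have 1 exon. HIST1H1C and HIST1H2BK count as short here, since their models hold coding sequence alone (642 and 381 bases), although both are known to make polyadenylated transcripts.

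The promoters of the members are shown because the core histone classes differ in them. RefSeq promoters of GRCh38.p14 were matched for 60 of the 70 members, and the 250 bases before the start were searched on both strands. The octamer ATTTGCAT, a site known to be bound by POU2F1 (Oct-1) in H2B promoters, was in 14 of 18 H2B and 11 of 14 H2A promoters. It was in 1 of 10 H3, 0 of 6 H1 and 0 of 12 H4 promoters. Over all 27305 promoters of the table, 1.66% held it. The box CCAAT was in 51 of the 60, but in 3 of 12 H4 promoters, against 9021 of all 27305 promoters. TATAAA was in 39 of the 60, against 11.1% of all. The last 120 bases before the start of 3 H2B members that recur below are given, with capitals marking CCAAT, the octamer and TATAAA on either strand.
HIST2H2BE, chr1:149886683-149886802, minus strand: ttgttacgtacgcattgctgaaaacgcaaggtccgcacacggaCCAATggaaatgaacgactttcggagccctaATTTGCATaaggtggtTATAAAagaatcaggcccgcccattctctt
HIST1H2BK, chr6:27146859-27146978, minus strand: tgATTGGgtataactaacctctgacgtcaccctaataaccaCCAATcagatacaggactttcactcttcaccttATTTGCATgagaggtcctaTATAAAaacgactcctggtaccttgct
HIST1H2BD, chr6:26158001-26158120, plus strand: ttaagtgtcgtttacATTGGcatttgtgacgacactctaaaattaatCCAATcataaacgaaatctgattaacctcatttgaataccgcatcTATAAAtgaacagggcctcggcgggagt
The HIST1H2BD stretch holds both other motifs and no exact octamer. A match is a match of letters and was not tied to any binding in these libraries.

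Levels are FPKM, fragments scaled by exon length and library size, as the authors deposited them. The libraries held 17655802 to 24105369 fragments assigned to genes. Mitochondrial genes took 9.47% and 9.64% of them in the H660 PLXND1 siRNA libraries, 8.58% in the H660 control, 7.44% and 6.83% in the C4-2B MDVR PLXND1 siRNA libraries and 3.38% in the C4-2B MDVR control. PLXND1 stood at 83.5% and 82.6% of the control in H660 with siRNA 1 and 2, and at 21.2% and 41.8% of the control in C4-2B MDVR, with no change past the test in either line. The H660 libraries fitted their label, with 8 of 8 neuroendocrine markers higher there. The neuroendocrine markers summed to 334 to 379 FPKM in H660 and 3.88 to 5.60 FPKM in C4-2B MDVR. CHGB, one of them, was at 0 in all 3 C4-2B MDVR libraries. Markers of stroma, blood and endothelium summed to 3.58 to 6.0 FPKM in every library.

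The members were low in every library and very unequal. In H660 they summed to 156 and 155 FPKM with PLXND1 siRNA 1 and 2, and 158 FPKM in the control. In C4-2B MDVR they summed to 647 and 258 FPKM with siRNA 1 and 2, and 210 FPKM in the control. The H660 libraries thus differed by little, and the C4-2B MDVR siRNA 1 library stood far above the other 5. The members took 2741, 3057 and 2963 fragments in H660 (siRNA 1, siRNA 2, control) and 12353, 3683 and 3666 fragments in C4-2B MDVR.

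Of the 70 members, 13 were listed at 0 in all 6 libraries, among them the germ-line genes HIST1H2AA and HIST1H2BA. The other germ-line members were HIST1H1T, at most 0.207 FPKM, and HIST3H3, at 0 to 0.420 FPKM in H660 and 0.702 to 1.15 FPKM in C4-2B MDVR. In 5 members over 80% of the exon bases also lie in exons of another gene. Of these 5, 4 were among the 13 at 0, and none had over 1 fragment in a library. Whether reads in such shared bases were counted was not tested, so a 0 there need not mean absence. At least 10 FPKM was reached by 4 members in every H660 library, and in C4-2B MDVR by 9 with siRNA 1 and 5 in each of the other 2 libraries. A mean of at least 1 FPKM over the 3 libraries of a line, needed to enter the tests, was reached by 35 members: 3 H1, 11 H2A, 10 H2B, 5 H3 and 6 H4. Those 35 are called measured. For 13 members at least 50% of the 50-base words of their transcripts also occur in another gene, HIST1H2BK (74.1%) and HIST2H3D (80.4%) among them, so their fragments may be divided between copies.

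**Figure D1:**
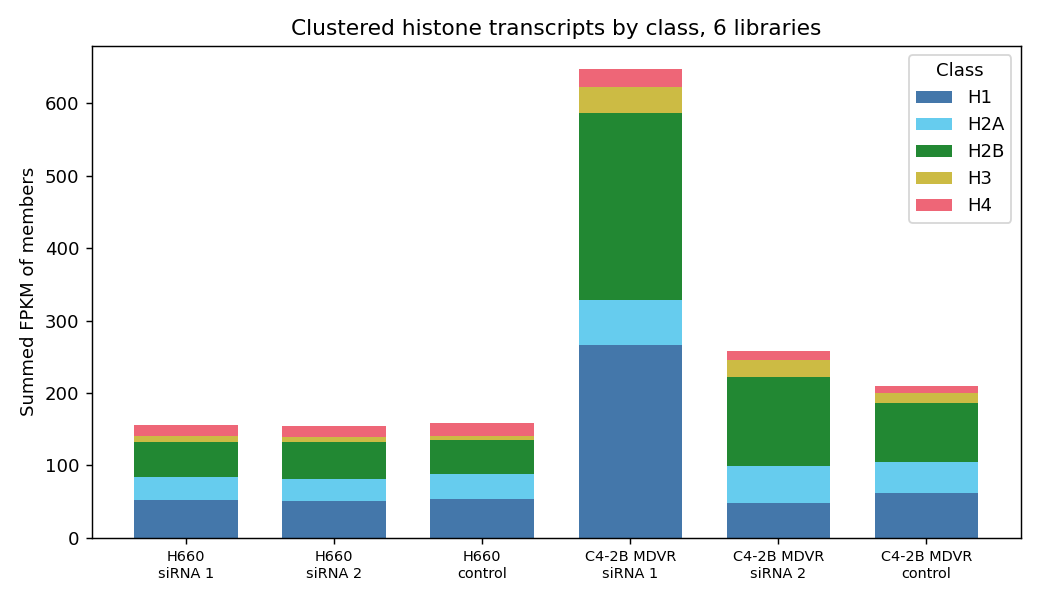
Summed FPKM of the 70 members in each of the 6 libraries, stacked by class. The H660 bars lie at 155 to 158 FPKM, and the C4-2B MDVR siRNA 1 bar reaches 647 FPKM, against 258 FPKM with siRNA 2 and 210 FPKM in its control.

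Among the classes, H1 and H2B held most of the summed level when all members were counted. H1 summed to 52.3, 50.9 and 54.1 FPKM in H660 and to 266.7, 48.1 and 62.4 FPKM in C4-2B MDVR, in the order siRNA 1, siRNA 2, control. H2B summed to 47.3, 51.0 and 46.7 FPKM in H660 and to 258.7, 122.8 and 80.8 FPKM in C4-2B MDVR. H2A, the partner of H2B in the nucleosome, was more even.

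H2A summed to 32.3, 30.2 and 33.6 FPKM in H660 and to 61.4, 51.3 and 42.6 FPKM in C4-2B MDVR. H4 summed to 15.9, 15.4 and 17.1 FPKM in H660 and to 24.2, 13.2 and 10.5 FPKM in C4-2B MDVR. H3 summed to 8.56, 7.55 and 6.61 FPKM in H660 and to 35.9, 23.0 and 13.6 FPKM in C4-2B MDVR, so that H3 was the lowest class in H660 and H4 in C4-2B MDVR. The core classes, which enter the nucleosome in equal parts, were not captured in equal parts in any library. On average over the 6 libraries H2B made up 36.5% and H1 31.7% of the summed level, and without the 13 members with near-identical copies these shares were 22.3% and 41.0%. Without those copies H2A was above H2B in 4 of the 6 libraries, the 3 of H660 (22.4% against 16.2% with siRNA 1) and the C4-2B MDVR control (23.3% against 22.6%). The only H2B member among the 13 is HIST1H2BK. The place of H2B thus rests largely on this gene, whose fragments may be divided between copies.

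HIST1H1C, a linker histone gene, had 26.6 and 26.2 FPKM in H660 with PLXND1 siRNA 1 and 2 and 29.01 FPKM in the control. In C4-2B MDVR it had 256.9 and 39.0 FPKM with siRNA 1 and 2 and 52.7 FPKM in the control. HIST1H2BK, the highest H2B member in every library, had 27.6 and 26.6 FPKM in H660 with siRNA 1 and 2 and 26.5 FPKM in the control. It had 104.7 and 70.9 FPKM in C4-2B MDVR with siRNA 1 and 2 and 45.6 FPKM in the control. Both genes were at nearly the same level in H660 and lay apart in C4-2B MDVR, where siRNA 2 put HIST1H1C below the control and HIST1H2BK above it.

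Among the H2A members HIST3H2A was highest in H660, at 13.4 and 15.5 FPKM with siRNA 1 and 2 and 14.2 FPKM in the control. In C4-2B MDVR it had 14.6 and 30.0 FPKM with siRNA 1 and 2 and 14.6 FPKM in the control. The C4-2B MDVR siRNA 2 library thus stood above the other 5, which lay close together. HIST1H4I led the H4 members, at 6.94 and 6.63 FPKM in H660 with siRNA 1 and 2 and 6.56 FPKM in the control. In C4-2B MDVR it had 8.94 and 7.28 FPKM with siRNA 1 and 2 and 5.03 FPKM in the control. Each line had its siRNA libraries above its control.

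**Figure D2:**
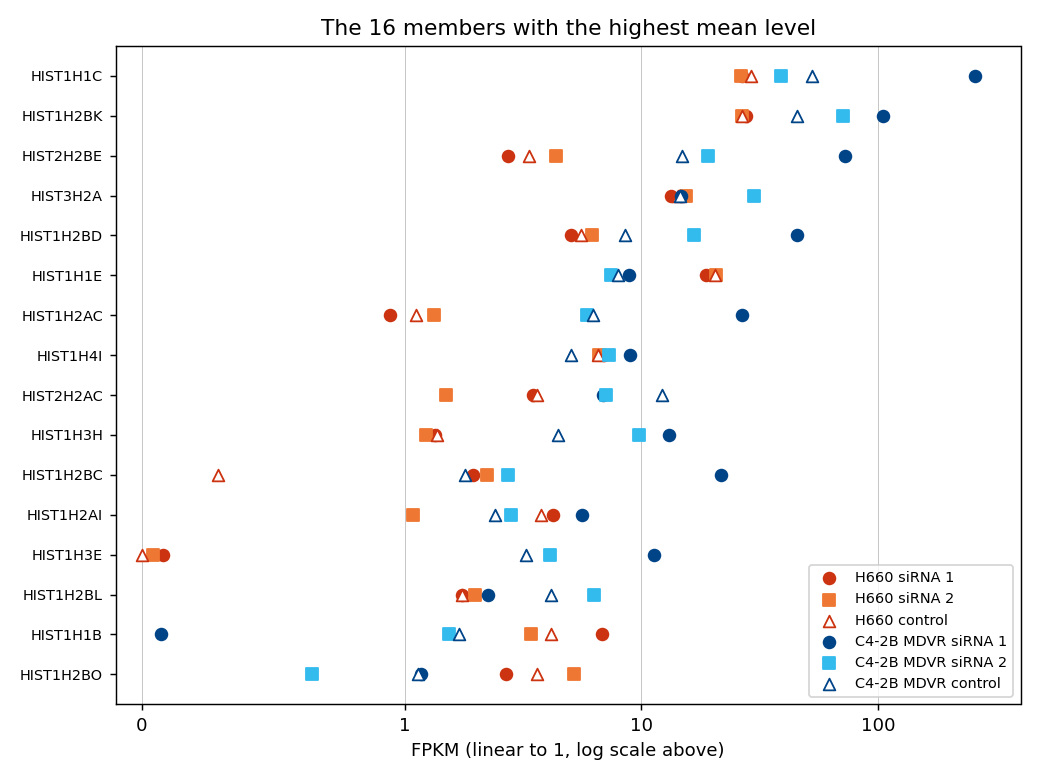
FPKM of the 16 members with the highest mean over all 6 libraries, 1 symbol per library, on an axis that is linear to 1 and logarithmic above. H660 symbols lie close together for most genes, while the C4-2B MDVR siRNA 1 circle is farthest right for HIST1H1C, HIST1H2BK, HIST2H2BE, HIST1H2BD and HIST1H2AC.

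The lines differed in which members they carried. In a limma fit of line and knockdown over all 15638 genes tested, 15 of the 35 measured members differed at an adjusted p (Benjamini-Hochberg) under 0.05 and at least 2-fold, which is 42.9% of them against 38.0% of all genes tested. A share so near the background is not a result about the members. By direction, 10 were lower in H660, against 17.9% of all genes, and 5 were higher, against 20.1%. The median difference, H660 minus C4-2B MDVR, was −0.24 over the measured members and −0.00 over all genes tested, on the log2(FPKM + 1) scale used for all changes below. In all 15 the 3 H660 libraries did not overlap the 3 C4-2B MDVR libraries, which a call at these limits makes likely, so it is no separate support. Of all 70 members, measured or not, 18 were lower and 10 higher in H660 without overlap. Over all genes tested, called or not, the libraries did not overlap with H660 higher in 37.1% and with H660 lower in 37.4%. These shares are no background for members already called.

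Of the 10 members lower in H660, 6 are long or spliced, and none of the 5 higher ones is, against 14 of the 35 measured members. HIST2H2BE, which encodes an H2B and is known for a polyadenylated transcript, had 2.73, 4.37 and 3.33 FPKM in H660 (siRNA 1, siRNA 2, control). In C4-2B MDVR it had 72.8, 19.2 and 14.9 FPKM. The lowest C4-2B MDVR library was above the highest H660 library, and the difference was −2.70 ± 0.52 (SE, adjusted p = 0.00424, limma). HIST1H2AC, an H2A gene also known for a polyadenylated form, had 0.944, 1.33 and 1.11 FPKM in H660 and 26.6, 5.87 and 6.22 FPKM in C4-2B MDVR. It fell by 2.39 ± 0.52 in H660 relative to C4-2B MDVR (SE, adjusted p = 0.00673, limma). Without the C4-2B MDVR siRNA 1 library the differences were smaller, −2.04 for HIST2H2BE and −1.73 for HIST1H2AC, and both still passed.

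HIST1H3E, an H3 gene with a long annotated end, had 0.0794, 0.0435 and 0 FPKM in H660, which is 5, 3 and 0 fragments, and 11.3, 4.09 and 3.24 FPKM in C4-2B MDVR, which is 608, 178 and 180 fragments. The difference was −2.63 ± 0.35 (SE, adjusted p = 0.000907, limma), a size set by the pseudocount of 1, since it was −5.31 with a pseudocount of 0.1. HIST1H3H had 1.34, 1.22 and 1.37 FPKM in H660 and 13.1, 9.76 and 4.44 FPKM in C4-2B MDVR, a difference of −2.02 ± 0.27 (SE, adjusted p = 0.000923, limma). For both genes every H660 library lay below every C4-2B MDVR library, and within C4-2B MDVR siRNA 1 gave the highest value.

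The others lower in H660 were HIST2H3D (−1.85), HIST1H2BD (−1.59), HIST2H2BF (−1.41), HIST2H2AC (−1.34), HIST1H2BK (−1.34) and HIST2H2AA4 (−1.09), with adjusted p (limma) from 0.00241 to 0.0210. HIST2H2AC ran against most of them within C4-2B MDVR: it had 6.88 and 7.10 FPKM there with siRNA 1 and 2 and 12.2 FPKM in the control. In H660 it had 3.49 and 1.49 FPKM with siRNA 1 and 2 and 3.63 FPKM in the control. HIST1H2BD and HIST2H2AA4 were lost when 1 H660 siRNA library was left out, either one, and HIST2H2AA4 also without the C4-2B MDVR siRNA 1 library. HIST2H2AA4 had 0, 2 and 1 fragments in H660 and 31, 7 and 9 in C4-2B MDVR (siRNA 1, siRNA 2, control). It shares 97.1% of its 50-base words with other genes, HIST2H2AA3 among them, so its difference cannot be assigned to HIST2H2AA4 alone. HIST1H1C, the highest member, did not pass, at −1.54 ± 0.67 (SE, adjusted p = 0.0816, limma), and its C4-2B MDVR libraries ranged from 39.0 to 256.9 FPKM.

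The 5 members higher in H660 are short models, and 2 of them encode H1. HIST1H1E had 18.7, 20.6 and 20.4 FPKM in H660 (siRNA 1, siRNA 2, control) and 8.89, 7.43 and 7.996 FPKM in C4-2B MDVR, and rose by 1.20 ± 0.11 in H660 relative to C4-2B MDVR (SE, adjusted p = 0.000207, limma). It was steady within each line, unlike HIST1H1C. HIST1H1B had 6.81, 3.42 and 4.15 FPKM in H660 and 0.0729, 1.54 and 1.70 FPKM in C4-2B MDVR, a difference of 1.53 ± 0.40 (SE, adjusted p = 0.0147, limma), and it did not pass without the H660 siRNA 1 library. HIST1H2BO was higher by 1.26 ± 0.23 (SE, adjusted p = 0.00328, limma).

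HIST1H2AE and HIST1H4K were listed at 0 in all 3 C4-2B MDVR libraries. HIST1H2AE had 3.85, 2.90 and 2.30 FPKM in H660, from 46, 38 and 29 fragments. Its H660 mean of 3.01 ± 0.78 FPKM (SD, n = 3) was at least 8.31-fold higher than the level that 3 fragments would give in 1 C4-2B MDVR library, and the fitted difference passed the test (adjusted p = 9.71e-05, limma). HIST1H2BG, its neighbour on the opposite strand with 282 bases between the annotated genes, was also at 0 in C4-2B MDVR and at 0.999, 0.759 and 1.05 FPKM in H660 (siRNA 1, siRNA 2, control). Its H660 mean was at least 7.78-fold above the same limit, but at under 1 FPKM on average it was not among the measured members. HIST1H2BG is a long model, of 1534 bases, that was higher in H660. HIST1H4K had 7, 17 and 20 fragments in H660, and all of its 50-base words are shared with HIST1H4J, so its reads cannot be told apart from those of HIST1H4J. HIST1H4J had 0, 1 and 0 fragments in H660 and 10, 0 and 1 in C4-2B MDVR (siRNA 1, siRNA 2, control), reaching 1.33 FPKM with siRNA 1 there. The 0 of HIST1H4K in C4-2B MDVR, and its difference between the lines, can thus not be assigned to HIST1H4K alone.

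**Figure D3:**
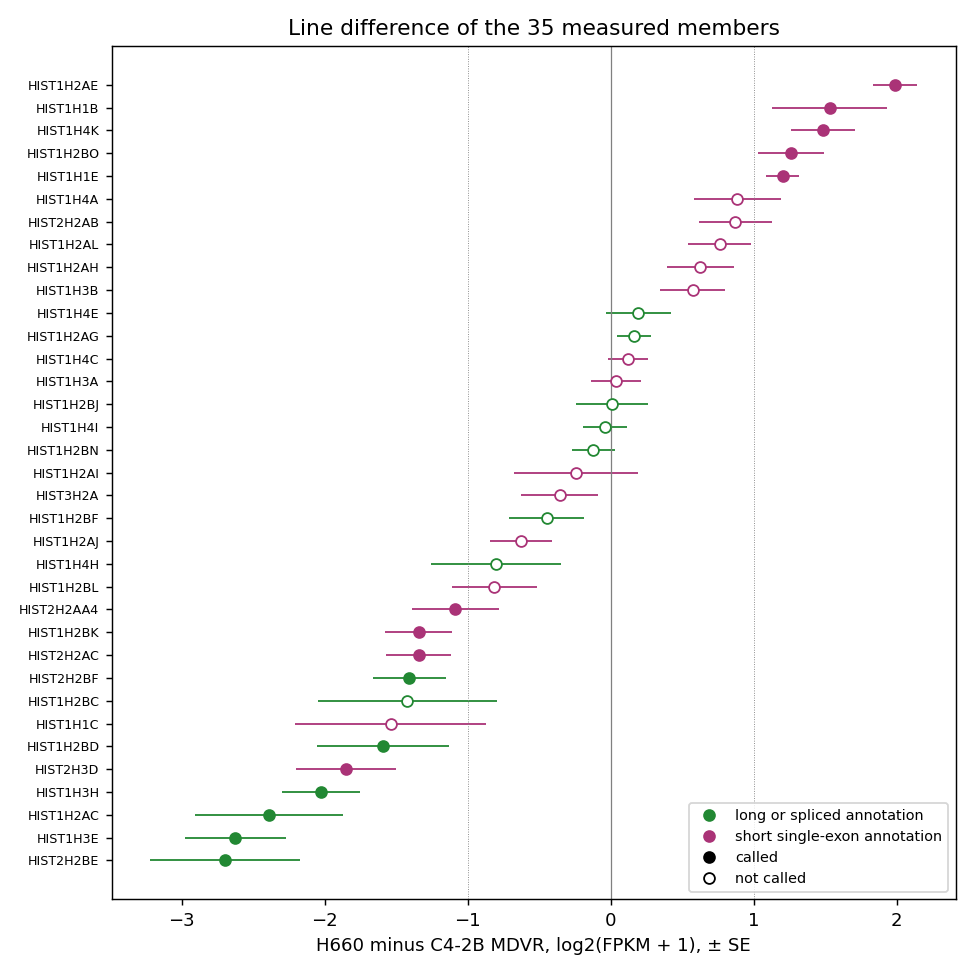
Difference between the lines, H660 minus C4-2B MDVR, on log2(FPKM + 1) for the 35 measured members, with bars of ± SE from limma. Filled symbols passed the test at 2-fold or more. The members at the negative end, from HIST2H2BE at −2.70, are mostly long or spliced, and the 5 filled symbols at the positive end are short models.

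Genes that make, carry and replace the clustered histones were read from lists of known roles. Of 25 measured S phase genes, 8 were higher and 1 was lower in H660, with a median difference of 0.76, against 20.1% of all genes higher, 17.9% lower and a median of −0.00. PCNA, the sliding clamp of DNA polymerase, had 338, 332 and 331 FPKM in H660 (siRNA 1, siRNA 2, control) and 78.7, 118 and 99.3 FPKM in C4-2B MDVR. TK1, thymidine kinase, went the other way, at 37.5, 31.7 and 33.2 FPKM in H660 and 124, 172 and 175 FPKM in C4-2B MDVR. The summed level of all 70 members was lower in every H660 library than in any C4-2B MDVR library. That of the 44 short members besides HIST1H1C and HIST1H2BK went the other way. They summed to 74.4, 73.0 and 74.5 FPKM in H660 and to 63.5, 72.5 and 59.7 FPKM in C4-2B MDVR.

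Of 17 genes of histone mRNA production, 1 was higher and 2 were lower in H660, fewer than the 38.0% called among all genes. CASP8AP2 (FLASH), which acts in the 3′ end processing of histone messages, rose by 2.20 ± 0.13 in H660 relative to C4-2B MDVR (SE, adjusted p = 3.27e-05, limma). LSM10, a subunit of the U7 particle of that processing, was lower in H660, with a difference of −1.005, and so was CPSF2, a subunit of the cleavage complex, at −1.16. SLBP had 85.4, 83.6 and 75.1 FPKM in H660 and 37.4, 56.7 and 49.0 FPKM in C4-2B MDVR and was under the 2-fold limit, at 0.77.

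Of 10 measured replication-independent variants, which cells use outside S phase, 3 were higher in H660 (H3F3A, H2AFV and the centromere histone CENPA) and 1 was lower. The lower one was H1F0, a linker histone of resting cells, at 44.3, 49.5 and 49.5 FPKM in H660 and 143, 162 and 146 FPKM in C4-2B MDVR (−1.63 ± 0.12 SE, adjusted p = 6.95e-05, limma). Of 17 measured histone chaperones, 4 were higher (ASF1A, ASF1B, NASP and SUPT16H) and 2 were lower (NAP1L1 and NPM1) in H660. For both of these lists the share called was close to the 38.0% of all genes and is not a result about them. None of these lists held a gene that passed in any comparison of PLXND1 siRNA with control.

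With PLXND1 siRNA no member passed. The adjusted p (limma) was 0.586 or above for the 35 measured members in C4-2B MDVR, 1 in H660 and 0.985 or above both for the lines together and for the contrast of their effects. Of all 15638 genes 0.0% passed in each of these, so the count of 0 members does not set them apart. At an unadjusted p under 0.05 there were 4 members in C4-2B MDVR (against 5.89% of all genes), 1 in H660 (4.14%), 2 in both lines together (4.18%) and 1 for the contrast of the effects (4.48%). The voom fit on fragments gave 0 calls in each as well, with 3, 0, 1 and 0 members at an unadjusted p under 0.05. The median change was 0.50 in C4-2B MDVR and 0.00 in H660, and 0.02 and −0.01 over all genes tested.

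In these fits both siRNAs of a line enter as repeats of 1 group, with 1 control. Read library by library, with no test, C4-2B MDVR with siRNA 1 had 11 of the 35 measured members at least 2-fold above its control and 1 as far below it, against 2.26% and 1.22% of all genes. The lower one was HIST1H1B. With siRNA 2 in the same line 1 member was at least 2-fold higher and 0 lower (1.63% and 1.37% of all genes). That member was HIST1H4A, an H4 gene, at 2.76 FPKM with siRNA 2, 0.637 FPKM with siRNA 1 and 0.618 FPKM in the control. In H660, 1 was higher and 0 lower with siRNA 1 (1.16% and 1.03%), and 1 higher and 1 lower with siRNA 2 (0.908% and 0.844%). The higher one was HIST1H2BC with both, and the lower one HIST1H2AI, at 1.08 FPKM with siRNA 2 and 3.77 FPKM in the control. The count far above the background thus came from 1 library, and no other library of that siRNA in that line was there to give its spread.

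In that library the measured long or spliced members stood together. All 14 measured ones were above the C4-2B MDVR control, 7 of them at least 2-fold, with a median of 1.13. Of the 21 measured short members 10 were above it and 9 below, with 4 at least 2-fold higher, 1 lower and a median of 0.00. HIST1H2AE and HIST1H4K, at 0 in every C4-2B MDVR library and measured through H660, give that median. HIST2H2AA4, 1 of the 4 higher, reached the 1 FPKM mean through the siRNA 1 library itself, at 2.73 FPKM against 0.764 FPKM with siRNA 2 and 0.770 FPKM in the control. With siRNA 2, 11 of the 14 measured long or spliced members were above the control, with a median of 0.30, and none reached 2-fold on this scale. Being measured could depend on the siRNA 1 library, which enters the C4-2B MDVR mean. Of the long or spliced members not measured, HIST2H4B (1.61), HIST1H2BE (1.17) and HIST2H4A (0.14) were above the control with siRNA 1. HIST1H3J (−0.22) and HIST3H2BB (−0.05) were below it, and HIST2H3A and HIST2H3C changed by 0.00. HIST1H2BG, HIST1H2BH and HIST1H3G were at 0 in every C4-2B MDVR library.

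In sums on the FPKM scale, the 24 long or spliced members reached 222 FPKM in C4-2B MDVR with siRNA 1, 75.8 FPKM with siRNA 2 and 51.9 FPKM in the control. In H660 they summed to 27.7, 29.1 and 28.1 FPKM. The 46 short members summed to 425.0 and 182.5 FPKM in C4-2B MDVR with siRNA 1 and 2 and to 157.9 FPKM in its control, so their sum was higher too. Without HIST1H1C and HIST1H2BK, the 44 other short members summed to 63.5 and 72.5 FPKM in C4-2B MDVR with siRNA 1 and 2 and to 59.7 FPKM in its control, and to 74.4, 73.0 and 74.5 FPKM in H660. The sum of these 44 was higher in every H660 library than in any C4-2B MDVR library, though by little against siRNA 2. It spanned a narrow range over the 6 libraries, although single members did not: HIST2H3D ran from 0 to 7.73 FPKM. HIST1H1C and HIST1H2BK were set aside after their values were seen.

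The size of the step with siRNA 1 in C4-2B MDVR is given by member, as the ratio of FPKM to the control with an exact 95% interval that covers counting error only. HIST1H2BC, an H2B gene, had 21.6 FPKM with siRNA 1, 2.73 FPKM with siRNA 2 and 1.79 FPKM in the control, ratios of 12.1 (8.34 to 18.0) and 1.52 (0.920 to 2.54). HIST1H2BD had 45.4, 16.7 and 8.53 FPKM, ratios of 5.32 (4.47 to 6.37) and 1.96 (1.59 to 2.41). Both siRNA libraries lay above the control for both H2B genes, and siRNA 1 gave the larger ratio.

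The ratios of HIST2H2BE, whose levels are given above, were 4.89 (4.50 to 5.32) with siRNA 1 and 1.29 (1.16 to 1.43) with siRNA 2. HIST1H1C had 4.88 (4.49 to 5.30) and 0.741 (0.654 to 0.839). HIST1H2AC had 4.29 (3.69 to 4.997) and 0.944 (0.764 to 1.16). For these last 2 genes siRNA 2 did not go with siRNA 1: the interval of HIST1H1C lay below 1 and that of HIST1H2AC included it.

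HIST1H4H, an H4 gene, had 6.66 FPKM with siRNA 1, 1.39 FPKM with siRNA 2 and 1.09 FPKM in the C4-2B MDVR control, ratios of 6.09 (4.49 to 8.43) and 1.28 (0.841 to 1.94). HIST1H3H had ratios of 2.95 (2.38 to 3.69) with siRNA 1 and of 2.20 (1.73 to 2.79) with siRNA 2. It had the lowest adjusted p of the members in C4-2B MDVR, with a change of 1.18 ± 0.22 (SE, adjusted p = 0.586, limma). All 5 members listed for known polyadenylated transcripts, HIST1H1C, HIST1H2AC, HIST1H2BD, HIST1H2BK and HIST2H2BE, were at least 2-fold higher with siRNA 1 in C4-2B MDVR, and none was with siRNA 2. This list was chosen with earlier results of these data known, so its count is a description and not independent support. That 4 of the 5 were also among the members lower in H660 uses the same C4-2B MDVR libraries.

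Ranked by the smaller of their 2 changes, the first 5 members with the same sign for both siRNAs in C4-2B MDVR, none of which passed, were HIST1H3H, HIST1H2BD (1.59 ± 0.60), HIST2H3D (1.21 ± 0.57), HIST1H2BK (0.90 ± 0.27) and HIST1H2BN (0.50 ± 0.17) upward, with the fitted change given. HIST1H2BC (1.72 ± 1.09) and HIST2H2BE (1.28 ± 0.82) had larger fitted changes, which came mainly from siRNA 1. Downward they were HIST2H2AC (−0.73 ± 0.38), HIST1H2AJ (−0.66 ± 0.31), HIST2H2AB (−0.45 ± 0.42), HIST1H4C (−0.30 ± 0.19) and HIST1H2AL (−0.28 ± 0.37), all errors being SE. Their adjusted p (limma) lay between 0.586 and 0.998. The 5 downward members are short models, and 4 of them encode H2A, but most rest on few fragments. In C4-2B MDVR (siRNA 1, siRNA 2, control) HIST2H2AC had 54, 45 and 99 fragments and HIST1H2AJ 6, 11 and 20. HIST2H2AB had 2, 3 and 7, HIST1H4C 8, 5 and 11, and HIST1H2AL 5, 4 and 8. HIST1H2AJ shares 83.7% of its 50-base words with HIST1H2AI, which was higher with both siRNAs, at 57, 23 and 25 fragments and 5.63, 2.82 and 2.40 FPKM. No class pattern is drawn from these counts.

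**Figure D4:**
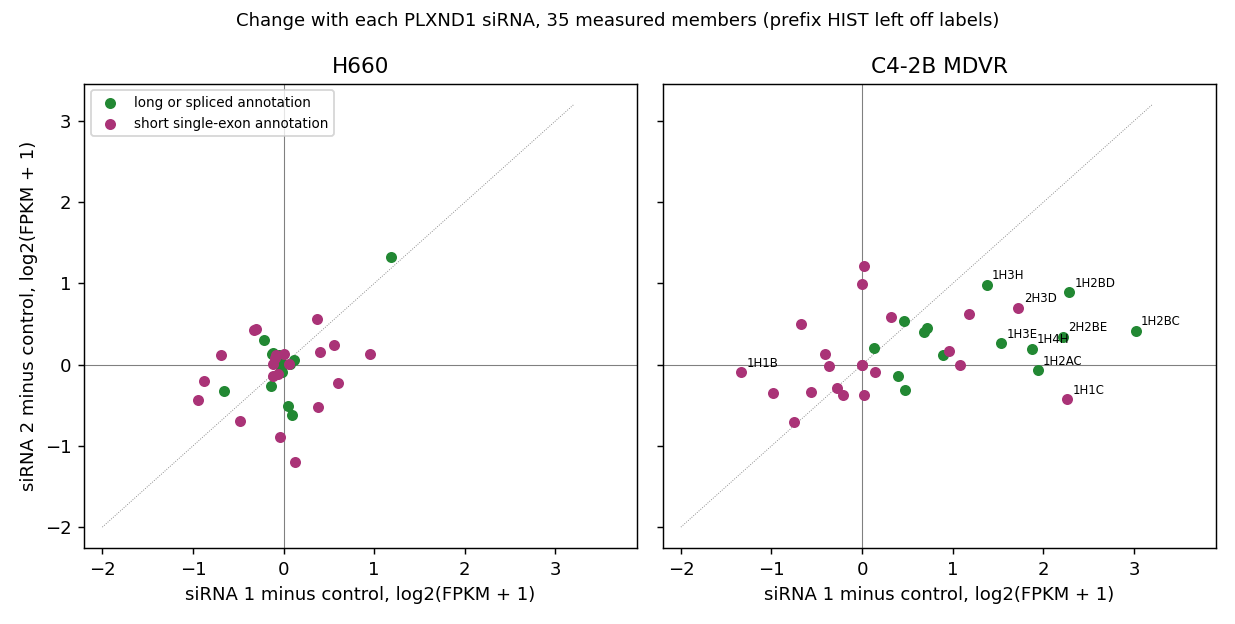
Change of each measured member against the control of its line with siRNA 1 (x axis) and siRNA 2 (y axis) on log2(FPKM + 1), in H660 (left) and C4-2B MDVR (right). In C4-2B MDVR all 14 long or spliced members lie to the right of 0 on the x axis, up to 3.02 for HIST1H2BC, while in H660 most members lie near 0 on both axes.

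In H660 the 2-fold mark was passed with both siRNAs by HIST1H2BC alone among the measured members, at 1.94 and 2.23 FPKM with siRNA 1 and 2 and 0.291 FPKM in the control, from 38, 48 and 6 fragments. Both siRNA libraries lay above the control, with ratios of 6.67 (2.80 to 19.3) and 7.69 (3.28 to 22.0), and the fitted change was 1.26 ± 1.09 (SE, adjusted p = 1, limma). That SE is pooled over both lines and is not the spread of the H660 libraries alone. The changes of this gene with siRNA 1 and 2 were 1.19 and 1.33 in H660, and 3.02 and 0.42 in C4-2B MDVR. The other members filling the places upward were HIST2H3D (0.54), HIST1H4A (0.47), HIST1H2AE (0.40) and HIST1H3A (0.28), and downward HIST1H2AH (−0.69), HIST1H4C (−0.59), HIST1H4K (−0.54), HIST1H2BJ (−0.49) and HIST2H2BF (−0.20). None passed.

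Over both lines HIST1H2BC (1.49), HIST2H3D (0.88), HIST1H4A (0.54), HIST1H3E (0.49) and HIST1H4I (0.32) were above the controls with all 4 siRNA libraries. Several of these signs rest on few fragments or on small steps. In H660 HIST2H3D had 9, 1 and 0 fragments (siRNA 1, siRNA 2, control) and HIST1H3E had 5, 3 and 0. In C4-2B MDVR HIST1H4A had 4 fragments with siRNA 1 and 4 in the control. The H660 ratios of HIST1H4I were 1.06 (0.870 to 1.29) and 1.01 (0.833 to 1.23), and both intervals include 1. HIST2H2AC (−0.60), HIST1H4C (−0.44) and HIST1H2AJ (−0.37) were below the controls with all 4. Of these, HIST1H2AJ had 6, 6 and 7 fragments in H660, and the ratio of HIST2H2AC with siRNA 1 in H660 was 0.963 (0.577 to 1.60). Each member named here, upward or downward, had an adjusted p (limma) of 0.985. HIST1H4C encodes an H4 and had 0.978 and 0.714 FPKM in H660 with siRNA 1 and 2 and 1.76 FPKM in the control. In C4-2B MDVR it had 0.913 and 0.708 FPKM with siRNA 1 and 2 and 1.22 FPKM in the control.

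Histone genes often lie head to head, an H2A and an H2B gene sharing the stretch between their starts. Among the members 11 such neighbours on opposite strands lay within 1000 bases of each other, and in 5 of these both genes were measured. The pair HIST1H2BC and HIST1H2AC, with 218 bases between the annotated genes, changed by 3.02 and 1.94 with siRNA 1 in C4-2B MDVR and by 0.42 and −0.07 with siRNA 2. The pair HIST2H2BE and HIST2H2AC, with 322 bases between, went apart in the same libraries: 2.22 and −0.75 with siRNA 1, and 0.34 and −0.71 with siRNA 2. In HIST1H2BK and HIST1H2AH the changes were 1.18 and −0.41 with siRNA 1 and 0.63 and 0.13 with siRNA 2, where HIST1H2AH had only 1, 4 and 4 fragments (siRNA 1, siRNA 2, control). HIST1H2BJ and HIST1H2AG changed by 0.47 and 0.13 with siRNA 1 and by −0.31 and 0.21 with siRNA 2. HIST1H2BL and HIST1H2AI changed by −0.67 and 0.96 with siRNA 1 and by 0.50 and 0.17 with siRNA 2. Members that share a stretch of promoter DNA therefore did not always move the same way.

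Other genes moved with the siRNA 1 library of C4-2B MDVR too. CDKN1A, the gene of p21, which halts the cell cycle, had 422 and 346 FPKM in C4-2B MDVR with siRNA 1 and 2 and 47.5 FPKM in the control. In H660 it had 96.3 and 94.5 FPKM with siRNA 1 and 2 and 92.6 FPKM in the control. In C4-2B MDVR it was thus far above the control with both siRNAs. The 25 S phase genes had a median change of −0.38 with siRNA 1 and 0.21 with siRNA 2 in C4-2B MDVR. Mitochondrial genes took a larger share of fragments in both siRNA libraries of that line than in its control, as given above. The part of any of these in the histone values was not tested.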

How the data were processed

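The data were 6 messenger RNA libraries of paired reads of 150 bases, 1 per line and treatment. The values are FPKM as deposited by the authors in 1 table. HISAT, Cufflinks and hg18 are named in the submitters' processing notes, without versions. All 58735 gene IDs are in GENCODE 29, an annotation of GRCh38, which gave symbols, exon lengths and coordinates. FPKM times exon length was a whole multiple of 1 step per library, within 0.05 fragments, in 100.0% of genes with at most 100 fragments, so fragment numbers were recovered. Library totals ran from 17655802 to 24105369 fragments. The levels of short models depend on the annotated length.

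Changes were fitted on log2(FPKM + 1) in R 4.3.3 with limma 3.58.1 (trend, two-sided, Benjamini-Hochberg, threshold 0.05) over 15638 genes with a mean of at least 1 FPKM over the 3 libraries of a line. The line difference and the effect in both lines came from an additive fit (3 residual degrees of freedom). A fit of 4 groups gave the effect per line and its contrast between lines (2 residual degrees of freedom), where a lone control is assumed to vary like the siRNA pairs. Its spread is pooled over both lines, so a gene has the same SE in each line. The scripts were tested on simulated data. Ratios of 2 libraries have exact binomial 95% intervals from fragments, which cover counting error only. The siRNA number marks a shared siRNA and not a shared culture. The correlation of the siRNA 1 minus siRNA 2 difference between the lines was −0.0043 over 15638 genes.

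The members and lists were chosen with earlier results of these data known. Named were the 10 highest members, up to 8 members called each way between the lines, up to 5 each way per siRNA comparison (filled, where fewer passed, by the smaller of the 2 changes with the same sign), the members of the lists and up to 4 genes of each list. HIST2H2AA4, HIST1H2BG, HIST1H4H, HIST1H2AI, the head-to-head genes, the long or spliced members not measured and CDKN1A were named after their values were seen. Likeness of pattern across libraries was not computed, since the libraries form 2 clusters by line. Alternatives were another pseudocount, no filter, quantile normalization, rescaling without short RNAs, limma voom with trimmed mean (TMM) factors on recovered fragments, a replicate block by siRNA number and leaving out each library. The marker check of the C4-2B MDVR line is not reported here.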

Additional observations from a re-analysis of the deposited data

Results flagged for a closer look

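In 3 of the members named for the comparisons both siRNA libraries of H660 lay on one side of their control and both of C4-2B MDVR on the other side. The change in H660 minus that in C4-2B MDVR was −1.23 for HIST1H3H (−0.02 and −0.09 in H660 with siRNA 1 and 2, and 1.38 and 0.98 in C4-2B MDVR). It was −0.71 for HIST2H2BF (−0.14 and −0.27 in H660, and 0.89 and 0.12 in C4-2B MDVR). It was 0.47 for HIST1H3A (0.41 and 0.16 in H660, and −0.36 and −0.02 in C4-2B MDVR). The test of the difference (limma, adjusted over all genes) did not pass for any of the 3, with an adjusted p of 0.985 each. The signs rest on small steps or few fragments. The H660 ratios of HIST1H3H were 0.978 (0.616 to 1.55) and 0.892 (0.562 to 1.41). HIST2H2BF had 7, 0 and 16 fragments in H660 (siRNA 1, siRNA 2, control), and HIST1H3A had 8, 10 and 13 in C4-2B MDVR. HIST1H2AG, named otherwise only as a head-to-head gene, also had opposite signs, at −0.03 and −0.04 in H660 and 0.13 and 0.21 in C4-2B MDVR. Its H660 ratios were 0.966 (0.681 to 1.37) and 0.947 (0.673 to 1.33), so these signs are within counting error.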

How the results depend on the processing

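The number of members that differed between the lines was 15, and it was 13 with no filter on low values, 15 without short RNAs, 17 by voom, 18 after quantile normalization and 20 with a pseudocount of 0.1. With each library left out in turn it ranged from 12 to 18, and of the 15 members 12 to 15 passed under each of these settings. Across 12 settings the 15 members kept their direction, while sizes of members near 0 followed the pseudocount: HIST1H3E was −5.31 with 0.1 and −7.10 by voom, HIST2H2BF −3.44 and −4.84, and HIST1H1B 2.56 and 2.67; HIST1H2BD and HIST2H2AA4 were lost with no filter, and the losses without 1 library are given with the members. A replicate block by siRNA number gave 17, adding HIST1H1C and HIST1H2BC, and the numbers share only the siRNA. In the comparisons of PLXND1 siRNA with control 0 members passed in every setting run, the block included, although with no filter 851 genes of all passed in C4-2B MDVR, 876 in H660 and 1372 for the contrast of the effects. Rescaling without short RNAs shifted the median of all genes to −0.17 in C4-2B MDVR, where the median of the measured members was 0.29. Without near-identical copies the share of H1 was 41.0% in place of 31.7% and that of H2B 22.3% in place of 36.5%. Depth limits the low members: 7 members above 0 reached under 4 fragments in every library, and zeros there allow up to 3 fragments per library.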
